A study of Mus musculus with 9 samples.

Results

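The 36 genes described here are genes of the amino acid response, the set of transcripts associated with the transcription factor ATF4. They comprise 7 transcription factors, 4 stress effectors, 6 enzymes of serine, asparagine, and proline synthesis, 3 enzymes of mitochondrial folate metabolism, 9 amino acid transporters, 6 cytosolic tRNA synthetases, and the lipoprotein receptor gene Vldlr. The genes were listed by name. Each had 1 entry among the 50686 genes of the count table, and all 36 were among the 15531 genes that passed the filter on low counts.

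ATF4 is the main transcriptional effector of the integrated stress response, in which kinases that sense amino acid shortage, endoplasmic reticulum stress, or viral RNA phosphorylate the translation factor eIF2α. Translation of Atf4 mRNA is favored when eIF2α is phosphorylated, so its mRNA level and its protein level need not move together, and RNA-Seq measures the mRNA. ATF4 pairs with C/EBP proteins on DNA and drives genes for amino acid synthesis, uptake, and tRNA charging. In osteoblasts it is known for its part in differentiation and in the supply of amino acids for collagen, a protein rich in glycine and proline.

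Transcript levels were compared in 3 groups of 3 mouse RNA-Seq libraries. Control osteoblasts were MC3T3-E1 cells, an established calvarial preosteoblast line, labeled as control. SB216763-treated osteoblasts were MC3T3-E1 cells given 10 µM SB216763, which inhibits the kinase GSK-3, over 14 days. The third group was mouse pulmonary ECs, whose treatment is labeled none. The treatment entry of each sample sets its group, since the protocol text is worded alike for all 9 samples and describes the treated cells only. The labels give neither the culture time or vehicle of the control cells nor the strain, age, or isolation of the ECs. Per the study's figure legends, the ECs were isolated by FACS. The labels do not say that replicates came from separate cultures or animals, so the p-values measure only the spread between these libraries. MC3T3-E1 is a single line, and the ECs differ from it in both cell type and source.

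Library totals ranged from 30990107 to 68946333 counts, and a floor of 3 counts corresponded to 0.0435 to 0.0968 CPM, the count scaled to a common library size. The lowest correlation between libraries of a group was 0.995 on the log scale. Between pairs of control libraries, the mean chi-square per gene against a split by library total was 27.2 to 104. It was 3.24 to 27.4 between treated libraries and 2.85 to 4.57 between EC libraries. This measure also grows with depth. Mitochondrial transcripts took 0.304% to 0.484% of counts in control libraries, 0.831% to 2.26% in treated libraries, with SB216763 replicate 3 the highest, and 0.711% to 0.814% in ECs. The summed level of 7 osteoblast markers was 43921 to 59349 CPM in control osteoblasts, 8068 to 8339 CPM in treated osteoblasts, where Alpl was under 1 CPM, and 45.1 to 64.5 CPM in ECs. Of 8 endothelial markers, 7 (Cdh5, Pecam1, Kdr, Tek, Tie1, Emcn, and Nos3) were under 1 CPM in control and in treated osteoblasts, with summed levels of 3.69 to 4.62 and 4.98 to 5.45 CPM against 6777 to 6979 CPM in ECs. The summed level of 6 smooth muscle and pericyte markers was 2863 to 3042 CPM in control and 138 to 155 CPM in treated osteoblasts, and that of 4 chondrocyte markers was 54.6 to 65.8 and 118 to 122 CPM. The summed level of 6 leukocyte markers was 46.7 to 48.8 CPM in ECs and at most 1.56 and 2.15 CPM in control and treated osteoblasts. Adipocyte and lung epithelial markers summed to at most 2.65 and 0.278 CPM in any library. The part of these shifts in the results below was not tested, and in bulk RNA fewer cells of a type and less RNA per cell cannot be told apart.

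The first comparison asked how the amino acid response genes differed between SB216763-treated and control osteoblasts. Enzymes of amino acid synthesis, mitochondrial folate enzymes, most transporters, and all 6 tRNA synthetases were lower after SB216763. Pycr1 was 16.1-fold and Psat1 10.0-fold lower. The transcription factors and stress effectors were divided. Atf4, Ddit3, Cebpb, Nupr1, Ddit4, and Sesn2 were 1.27-fold to 2.40-fold higher, whereas Trib3, Atf3, Cebpg, and Atf5 were lower. Tested with edgeR's quasi-likelihood test at a Benjamini-Hochberg adjusted p under 0.01, 27 of the 36 genes were lower and 7 were higher, with Atf5 and Chac1 close to the threshold. Of all genes tested, 32.0% were called lower and 32.9% higher at that threshold. The median log2 fold change was −1.02 over the 36 genes and 0.01 over all genes tested. When a log2 change of 1 or more was required as well, 19 genes were lower and 2 were higher, where 13.0% and 11.1% of all genes passed. When that limit was raised to 2, 4 genes (Pycr1, Psat1, Slc6a9, and Slc7a11) were lower and 0 were higher, where 5.84% and 3.81% of all genes passed. The 3 treated libraries lay wholly below the 3 control libraries for 27 genes and wholly above them for 6, against 35.9% and 37.3% of all genes tested.

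By role, the calls ran in different directions. All 6 synthesis enzymes, all 3 folate enzymes, and all 6 tRNA synthetases were called lower, as were 7 of the 9 transporters and Vldlr. Among transcription factors 4 were called higher and 3 lower, and among stress effectors 3 were higher and 1 was lower. These counts include Atf5 among the lower and Chac1 among the higher genes, both close to the threshold. Over all genes tested, 32.9% were called higher and 32.0% lower. Median log2 fold changes were −1.90 for the synthesis enzymes, −1.34 for the folate enzymes, −1.55 for the transporters, −0.81 for the tRNA synthetases, 0.35 for the transcription factors, and 0.50 for the stress effectors. Summed over all 36 genes, the level was 8543 ± 86.1 CPM in control osteoblasts, 4826 ± 147 CPM in treated osteoblasts, and 6497 ± 35.9 CPM in ECs (SD, n = 3 each). The synthesis enzymes alone summed to 1786 ± 50.9, 402 ± 20.0, and 991 ± 21.7 CPM in the same order of groups, while the transcription factors summed to 1184.5 ± 44.8, 1369 ± 60.4, and 628 ± 8.10 CPM.

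**Figure D1:**
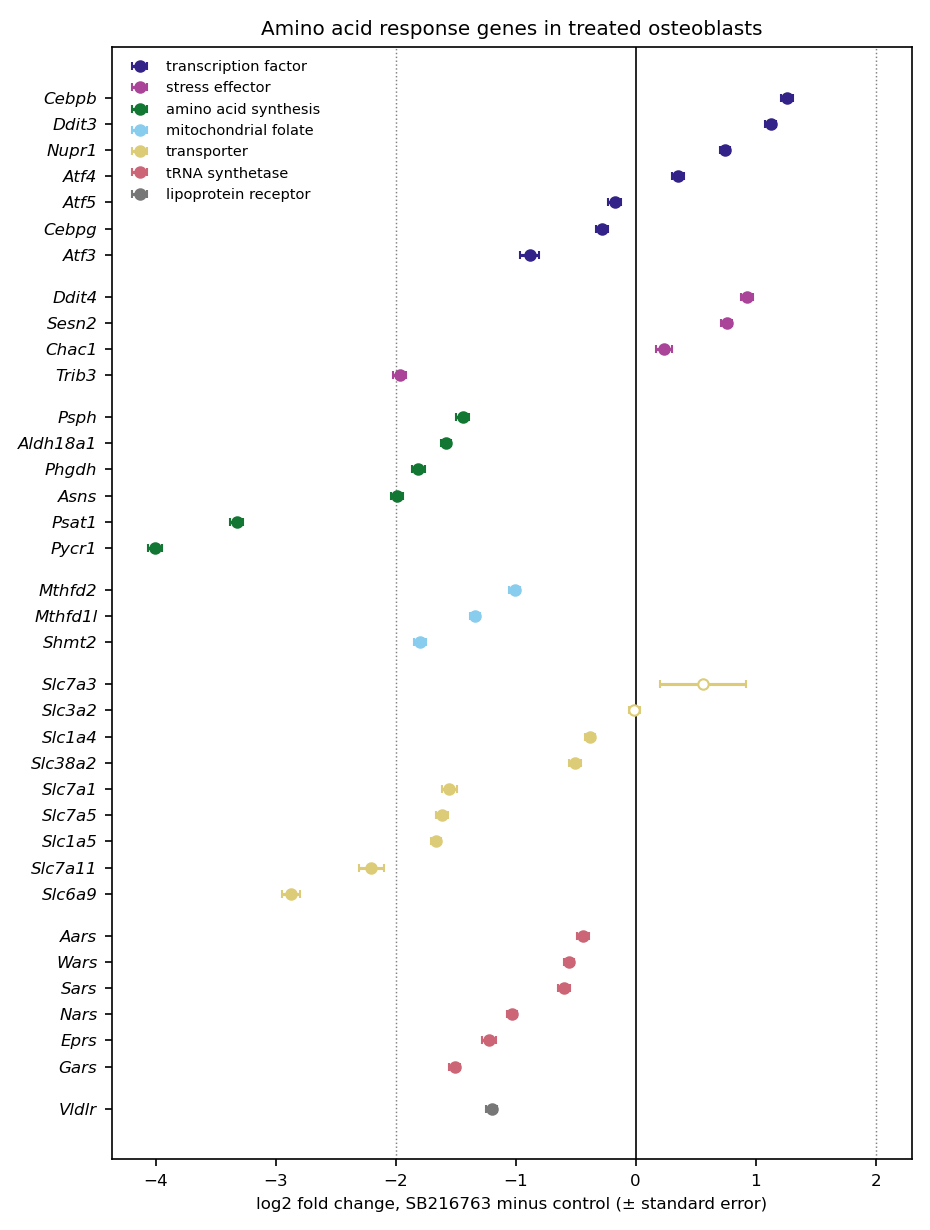
Log2 fold change of each of the 36 genes in SB216763-treated minus control osteoblasts (horizontal axis), grouped and colored by role, with bars for the standard error, filled points for an adjusted p under 0.01, and dotted lines at −2 and 2. The synthesis, folate, and tRNA synthetase genes lie left of 0, the transcription factors and stress effectors lie on both sides, and the open points are Slc7a3 and Slc3a2.

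The promoters of these genes were searched for the element that ATF4 and C/EBP partners bind, to show what the genes share in sequence. RefSeq promoter sequences (250 bases before to 50 after the transcription start, GRCm38.p6) were matched by symbol for 31 genes. Slc7a5, Slc7a3, Slc1a5, Wars, and Nars had no entry. The core TGATGNAA, searched on both strands, was in the window of 11 of the 31 genes (35.5%) and of 4.51% of the 27025 genes with a promoter. TGATGCAA, which is a special case of TGATGNAA, was found in 8 of the 31 (25.8%) and in 1.03% of all. The cAMP response element TGACGTCA was in 0 of the 31 and in 2.03% of all. The genes were listed for their association with ATF4, so a higher share of its element may follow from that choice. The shares are given as a description and were not tested. The stretches below show the match, in capitals, in genes that moved in different directions, read 5′ to 3′ on the strand of the gene. They lie at chr11:120643818-120643877 (minus strand), chr3:50443637-50443696 (minus strand), chr6:7693214-7693243 (minus strand), chr6:55037941-55038000 (plus strand), chr1:191183410-191183469 (minus strand), chr2:119351023-119351082 (plus strand), and chr7:126625562-126625591 (minus strand), in that order. TTGCATCA and TTTCATCA are the reverse complements of TGATGCAA and TGATGAAA.
Pycr1: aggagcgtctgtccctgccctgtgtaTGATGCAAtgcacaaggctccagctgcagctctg
Slc7a11: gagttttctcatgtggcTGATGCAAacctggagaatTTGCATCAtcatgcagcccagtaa
Asns: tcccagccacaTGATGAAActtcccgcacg
Gars: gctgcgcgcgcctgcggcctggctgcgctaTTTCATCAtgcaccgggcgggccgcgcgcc
Atf3: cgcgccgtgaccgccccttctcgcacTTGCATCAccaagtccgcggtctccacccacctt
Chac1: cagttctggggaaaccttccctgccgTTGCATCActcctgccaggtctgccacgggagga
Nupr1: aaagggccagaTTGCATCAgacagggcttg

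Counted from the transcription start, the first base of the match was at −103 in Pycr1, at −66 and −47 in Slc7a11, where the pair lies on opposite strands, at −23 in Asns, at −30 in Gars, at −110 in Atf3 and in Nupr1, and at −193 in Chac1. The Asns, Atf3, and Nupr1 stretches lie inside the annotated bounds of their genes, and those of Asns and Nupr1 overlap an annotated exon. The other genes with a match were Trib3, Aars, Slc1a4, and Vldlr. Of the 11 genes with a match, 9 were called lower and 2 (Chac1 and Nupr1) higher after SB216763, with a median log2 fold change of −1.20. Of the 20 genes without one, 14 were lower, 5 higher, and 1 not called, with a median of −0.80. The shares over all genes tested were 32.0% lower and 32.9% higher. Genes with and without a match in this window were found among both the lower and the higher transcripts. The control and treated libraries of Chac1 overlapped. Sequence outside the window was not searched, and a link between a match and the direction of change was not tested. A match is a stretch of letters, and no binding was measured.

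Serine is made from the glycolytic intermediate 3-phosphoglycerate by PHGDH, PSAT1, and PSPH, acting in that order. Phgdh (chr3:98313170-98339990), which encodes the first enzyme, was at 354, 379.6, and 366 CPM in control, 107, 109, and 97.3 CPM in treated osteoblasts, and 277, 282, and 303 CPM in ECs. All treated libraries were below all others, and the treated level was 3.51-fold lower than control (log2 fold change −1.81, SE 0.06, edgeR adjusted p = 7.45e-14). Psat1 (chr19:15904678-15947337), for the aminotransferase, was at 469, 515, and 476 CPM in control, 50.9, 49.6, and 45.2 CPM in treated osteoblasts, and 301, 307, and 301 CPM in ECs. It held the second lowest log2 fold change of the 36 genes, −3.32 (SE 0.06, edgeR adjusted p = 1.11e-16), with no treated library above 50.9 CPM. Psph (chr5:129765558-129787449), for the phosphatase that releases serine, was at 43.9, 48.3, and 43.0 CPM in control, 17.2, 17.1, and 15.6 CPM in treated osteoblasts, and 66.5, 66.5, and 66.7 CPM in ECs. Its treated libraries were again below all others (log2 fold change −1.44, SE 0.06, edgeR adjusted p = 1.46e-12), but it was the one serine enzyme whose EC libraries were the highest of the 3 groups. Psph overlaps Cct6a in the annotation.

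Asparagine synthetase and the proline enzymes fell as well. Asns (chr6:7675169-7693254), whose product converts aspartate to asparagine and which is a standard readout of the amino acid response, was at 470.1, 495, and 469 CPM in control, 119.7, 128, and 113 CPM in treated osteoblasts, and 142, 146, and 150.3 CPM in ECs. The treated libraries were 3.97-fold lower than control (log2 fold change −1.99, SE 0.05, edgeR adjusted p = 1.30e-14) and sat a little under the ECs without overlapping them. Aldh18a1, which encodes the enzyme that starts proline synthesis from glutamate, was at 324, 312, and 314 CPM in control, 108, 107, and 103 CPM in treated osteoblasts, and 164, 163, and 172 CPM in ECs (log2 fold change of treated against control −1.58). Pycr1 (chr11:120635712-120643769), for the mitochondrial reductase that completes proline, was at 93.0, 95.9, and 91.3 CPM in control, 5.88, 6.10, and 5.47 CPM in treated osteoblasts, and 22.0, 21.1, and 22.7 CPM in ECs. The groups were far apart, and the treated level was 16.1-fold below control (log2 fold change −4.00, SE 0.06, edgeR adjusted p = 1.37e-17). Counted from the lowest log2 fold change of the 15531 genes tested, Pycr1 held rank 224 and Psat1 rank 410.

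The mitochondrial folate enzymes pass the one-carbon unit of serine to formate. Shmt2, which splits serine into glycine and a one-carbon unit, was at 273, 274, and 258 CPM in control, 75.2, 80.0, and 76.7 CPM in treated osteoblasts, and 232, 231, and 243 CPM in ECs. Treated libraries were the lowest of the 3 groups (log2 fold change against control −1.80, SE 0.05, edgeR adjusted p = 9.93e-15). Mthfd1l, for the formyltetrahydrofolate synthetase that releases formate, was also lowest in treated osteoblasts, at 136, 128, and 134 CPM in control, 52.2, 53.2, and 51.8 CPM after SB216763, and 94.9, 92.6, and 94.96 CPM in ECs (log2 fold change −1.34). Mthfd2, for the dehydrogenase and cyclohydrolase between them, was at 244, 258, and 237 CPM in control, 126, 126, and 117 CPM in treated osteoblasts, and 103, 99.6, and 100.4 CPM in ECs. It fell by 1.01 on the log2 scale after SB216763 and, unlike the other folate genes, was lower still in ECs. Shmt2 overlaps Ndufa4l2 on the other strand, and the strand setting of the counting is not given in the sources used here.

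**Figure D2:**
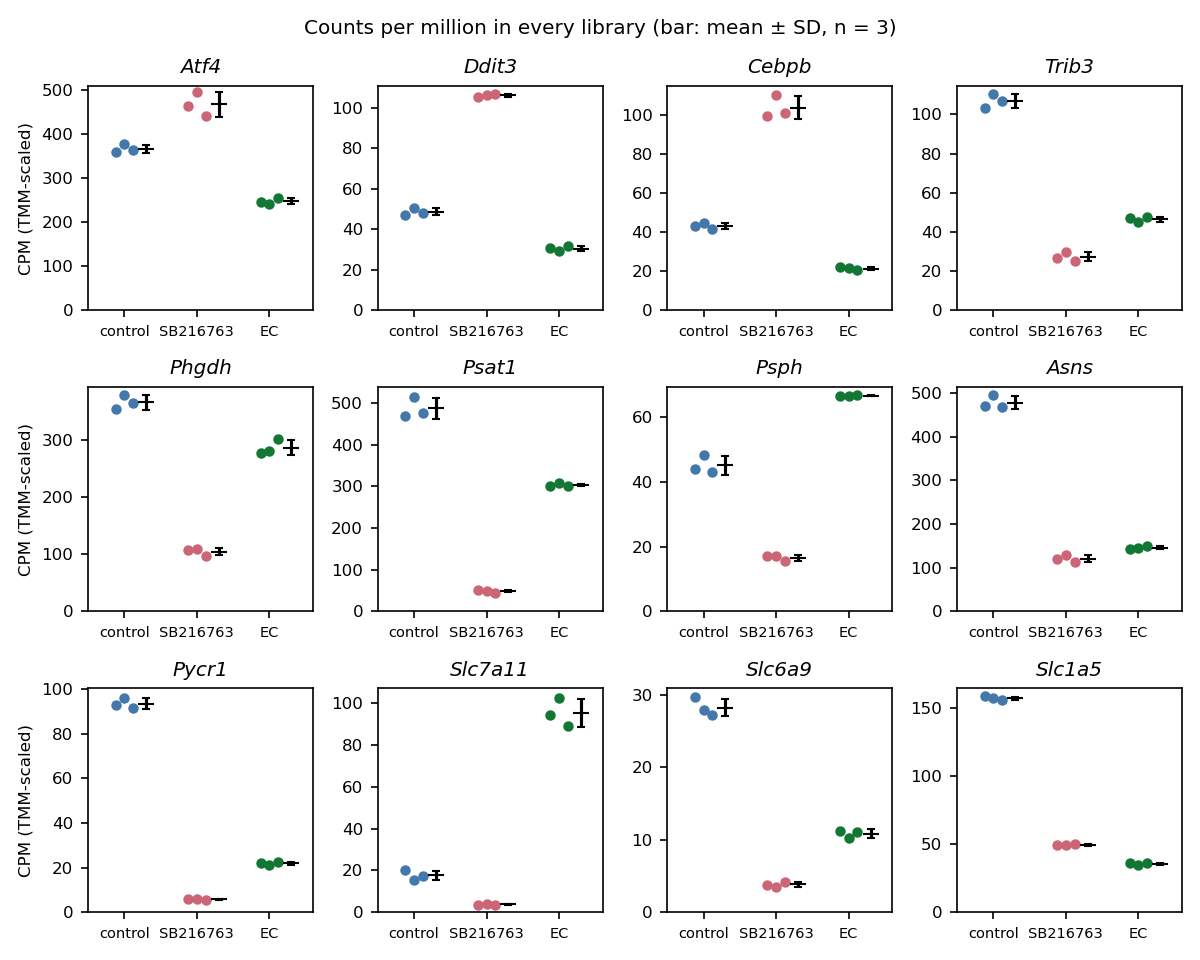
Level in CPM (vertical axis, from 0) of 12 of the genes in each of the 9 libraries by group, 1 point a library, with the mean and SD of each group (n = 3) beside the points. The treated points of Pycr1, Psat1, Slc6a9, and Slc7a11 lie under all other points, and those of Atf4, Ddit3, and Cebpb lie above them.

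Among the 9 transporters, 7 fell, none rose, and Slc3a2 and Slc7a3 did not pass the test. For comparison, 32.0% of all genes tested were called lower and 32.9% higher. Slc7a11 (chr3:49892526-50443614), the cystine and glutamate exchanger, was at 20.0, 15.6, and 17.6 CPM in control, 3.64, 4.22, and 3.70 CPM in treated osteoblasts, and 94.2, 102, and 89.0 CPM in ECs. The groups did not overlap, and treated libraries were 4.61-fold below control (log2 fold change −2.20, SE 0.10, edgeR adjusted p = 1.93e-11). Slc6a9 (chr4:117834506-117875198), the glycine transporter GLYT1, was at 29.6, 27.8, and 27.2 CPM in control, 3.81, 3.52, and 4.25 CPM in treated osteoblasts, and 11.3, 10.2, and 11.1 CPM in ECs. This was a 7.33-fold lower level after SB216763 (log2 fold change −2.87, SE 0.08, edgeR adjusted p = 1.40e-14), with ECs between the MC3T3-E1 groups. Slc6a9 overlaps annotated genes, B4galt2 among them, whose reads were not separated here.

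Slc7a5 encodes the light chain of the large neutral amino acid transporter LAT1, and Slc3a2 encodes the heavy chain that it shares with the SLC7A11 exchanger. Slc7a5 was at 599.7, 613, and 604 CPM in control, 202, 207, and 186 CPM in treated osteoblasts, and 290.3, 290.4, and 301 CPM in ECs, a log2 fold change after SB216763 of −1.61 (SE 0.05, edgeR adjusted p = 7.06e-14). Slc3a2 was at 309, 318, and 305 CPM in control and 312, 315, and 299.5 CPM in treated osteoblasts, so the ranges overlapped, and its log2 fold change was −0.01 (95% interval −0.104 to 0.0834, edgeR adjusted p = 0.851). With scaling by library size alone the Slc3a2 value turned to 0.19 (edgeR adjusted p = 0.000418). The light and heavy chain genes therefore had different fold changes in the same libraries.

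The remaining transporters carry cationic and small neutral amino acids. Slc7a1, the cationic amino acid transporter CAT1, was at 329, 271, and 316 CPM in control, 102, 103, and 107 CPM in treated osteoblasts, and 252, 256, and 261 CPM in ECs (log2 fold change after SB216763 −1.55). Slc1a5, the glutamine and neutral amino acid transporter ASCT2, was at 158, 157, and 156 CPM in control, 49.1, 49.4, and 50.1 CPM in treated osteoblasts, and 36.3, 34.9, and 35.9 CPM in ECs (log2 fold change −1.67, SE 0.04, edgeR adjusted p = 4.53e-15). Both fell after SB216763 with no overlap of libraries. The related Slc1a4 (ASCT1) moved less, from 157, 151, and 152 CPM in control to 117, 121, and 116 CPM in treated osteoblasts, with 35.8, 35.8, and 35.2 CPM in ECs (log2 fold change after SB216763 −0.38). Slc38a2, the sodium-coupled transporter SNAT2, fell by 0.51 on the log2 scale, from 372 ± 21.6 to 262 ± 5.36 CPM (mean ± SD, n = 3 each). Slc7a3, a further cationic transporter, had the lowest level of the 36 genes per length in every group, at 0.205, 0.218, and 0.313 CPM in control and 0.430, 0.417, and 0.191 CPM in treated osteoblasts. Its log2 fold change of 0.56 had a 95% interval from −0.197 to 1.32 (edgeR adjusted p = 0.168), and no difference was detectable at this depth.

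The 6 cytosolic tRNA synthetases, which load amino acids onto their tRNAs, were all lower after SB216763, with log2 fold changes from −1.51 for Gars to −0.44 for Aars. Gars, for glycine, was at 649, 677, and 649 CPM in control, 235, 232, and 226 CPM in treated osteoblasts, and 387, 385, and 389.7 CPM in ECs (log2 fold change −1.51, SE 0.04, edgeR adjusted p = 4.76e-14). Eprs, for glutamate and proline, was at 562, 475, and 550.3 CPM in control, 226, 229, and 228 CPM in treated osteoblasts, and 443, 456, and 457 CPM in ECs (log2 fold change −1.22). Nars, for asparagine, was at 440.4, 432, and 420.2 CPM in control, 214, 213, and 207 CPM in treated osteoblasts, and 215, 220.3, and 212 CPM in ECs (log2 fold change −1.03). In each of these genes every treated library was below every control library, and for Nars the treated and EC libraries overlapped. Sars, Wars, and Aars, for serine, tryptophan, and alanine, had log2 fold changes of −0.60, −0.55, and −0.44, again without overlap. Among all genes tested, 32.0% were called lower, and 35.9% had treated libraries wholly below the control libraries. Summed, the 6 genes were at 2557 ± 52.8 CPM in control and 1333 ± 27.1 CPM in treated osteoblasts (SD, n = 3 each). Vldlr, a lipoprotein receptor gene that is also an ATF4 target, was at 109, 103, and 106 CPM in control, 45.5, 47.3, and 45.9 CPM in treated osteoblasts, and 158, 161, and 154 CPM in ECs, and it fell by 1.20 on the log2 scale after SB216763.

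The transcription factors did not all share that direction. Atf4 (chr15:80255184-80257541) itself was at 359, 378, and 364 CPM in control, 465, 497, and 442 CPM in treated osteoblasts, and 247, 242, and 255 CPM in ECs. The treated libraries were the highest of all 9, 1.27-fold above control (log2 fold change 0.35, SE 0.05, edgeR adjusted p = 1.20e-05). Ddit3 (chr10:127290774-127296288), which encodes the stress factor CHOP, was at 47.2, 50.5, and 48.0 CPM in control, 105, 106, and 107 CPM in treated osteoblasts, and 30.6, 29.3, and 31.7 CPM in ECs. Treated osteoblasts were 2.18-fold above control (log2 fold change 1.13, SE 0.04, edgeR adjusted p = 1.78e-12), with no overlap between groups. Cebpb (chr2:167688915-167690418), for a C/EBP partner of ATF4, showed the highest fold change of the 36 genes, from 43.1, 44.7, and 41.4 CPM in control to 99.5, 110.2, and 101 CPM in treated osteoblasts, against 21.9, 21.5, and 20.4 CPM in ECs. That was a 2.40-fold higher level (log2 fold change 1.26, SE 0.05, edgeR adjusted p = 2.12e-12). Nupr1 (chr7:126623249-126630861), a small stress-induced transcriptional regulator, rose from 71.4, 72.4, and 69.5 CPM to 119, 122, and 117 CPM and was lowest in ECs, at 14.3, 14.8, and 15.2 CPM (log2 fold change after SB216763 0.75). In the annotation, Ddit3 overlaps Mars and Gm4189 on the other strand and another gene entry of the same name on its own strand. Cebpb overlaps Tmem189.

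The other 3 factors were lower. Atf3, a stress-induced transcription factor gene, was at 6.93, 7.79, and 7.15 CPM in control, 3.84, 4.14, and 3.87 CPM in treated osteoblasts, and 31.8, 32.6, and 33.2 CPM in ECs, and it fell by 0.88 on the log2 scale after SB216763 (SE 0.08, edgeR adjusted p = 4.35e-08). Its groups were separate, with ECs the highest. Cebpg, for another C/EBP partner of ATF4, was at 86.4 ± 2.31 CPM in control and 71.1 ± 2.25 CPM in treated osteoblasts (mean ± SD, n = 3 each, log2 fold change −0.28, edgeR adjusted p = 1.33e-04), and with scaling by library size alone the call was lost (−0.08, edgeR adjusted p = 0.183). Atf5, a relative of Atf4 with a part in mitochondrial stress, was just past the threshold, at 562, 591, and 529.6 CPM in control and 511, 516, and 465 CPM in treated osteoblasts (log2 fold change −0.17, edgeR adjusted p = 0.00972). Its adjusted p was above 0.01 without control replicate 1 (0.0203), control replicate 2 (0.0230), SB216763 replicate 1 (0.0144), SB216763 replicate 3 (0.0413), EC replicate 1 (0.0153), EC replicate 2 (0.0126), or EC replicate 3 (0.0153), and with scaling by library size alone its value turned to 0.03.

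Of the 4 stress effectors, Ddit4 and Sesn2 rose and Trib3 fell. Ddit4, for the mTORC1 inhibitor REDD1, was at 69.9 ± 4.11 CPM in control and 133 ± 4.06 CPM in treated osteoblasts (mean ± SD, n = 3 each, log2 fold change 0.93, edgeR adjusted p = 6.39e-11). Sesn2, for sestrin 2, a leucine-binding inhibitor of mTORC1, was at 108 ± 1.37 CPM and 182 ± 10.2 CPM (mean ± SD, n = 3 each, log2 fold change 0.76, edgeR adjusted p = 6.12e-10). Both were higher in every treated library than in any control library. Trib3 (chr2:152337422-152344032), for a pseudokinase induced by ATF4 and CHOP, went the other way, at 103, 110.1, and 107 CPM in control, 26.9, 29.8, and 25.2 CPM in treated osteoblasts, and 47.0, 45.0, and 47.4 CPM in ECs (log2 fold change after SB216763 −1.97, SE 0.06, edgeR adjusted p = 3.34e-14). Chac1, for an enzyme that degrades glutathione, was at 25.6, 28.3, and 26.6 CPM in control and 33.8, 33.3, and 27.7 CPM in treated osteoblasts. The control and treated libraries overlapped although it passed the threshold (log2 fold change 0.24, edgeR adjusted p = 0.00576), and it lost the call without control replicate 1 (adjusted p 0.0336), control replicate 3 (0.0204), SB216763 replicate 1 (0.0443), SB216763 replicate 2 (0.0367), or EC replicate 2 (0.0105).

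The genes were also ordered by level within each group. On a scale that allows for gene length (TPM, with the union of annotated exons as length), Atf5 (824 ± 75.6 TPM), Gars (618 ± 59.3 TPM), Asns (512 ± 46.5 TPM), Slc7a5 (479 ± 51.7 TPM), and Atf4 (456 ± 42.7 TPM) led the 36 genes in control osteoblasts (mean ± SD, n = 3). After SB216763 the leading genes were Atf5 (886 ± 56.0 TPM), Atf4 (705 ± 40.7 TPM), Slc3a2 (311 ± 10.6 TPM), Ddit4 (269 ± 8.13 TPM), and Gars (263 ± 8.64 TPM). Asns was at rank 3 of the 36 genes in control and at rank 12 in treated osteoblasts, and Psat1 at ranks 7 and 28. Atf5 thus had a higher mean in TPM and a lower mean in CPM after SB216763, the scales being set differently, so TPM are used here only for the order within a group.

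The second comparison set the ECs against control osteoblasts and asked how the same genes differ between the control line and the endothelial reference. The 2 comparisons share the control libraries. ECs held less mRNA of most of the genes, with 26 called lower and 8 called higher, where 37.9% and 39.0% of all genes tested were called. The library ranges did not overlap for 27 lower and 8 higher genes, against 41.4% and 42.6% of all genes. The median log2 fold change was −0.56 over the 36 genes and 0.01 over all genes tested. At a log2 change of 1 or more, 12 were lower and 5 higher, where 17.5% and 21.2% of all genes passed. At 2 or more, Nupr1 (−2.27, edgeR adjusted p = 1.76e-16), Slc1a5 (−2.14, 7.96e-17), Slc1a4 (−2.11, 1.55e-16), and Pycr1 (−2.09, 4.58e-16) were lower, and Slc7a11 (2.42, 4.83e-14) and Atf3 (2.16, 1.26e-14) were higher, where 9.87% and 13.5% of all genes passed.

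By role, ECs had 5 of the 6 synthesis enzymes, all 3 folate enzymes, 5 of the 6 tRNA synthetases, 5 of the 7 transcription factors, and 3 of the 4 stress effectors lower than control osteoblasts. The share called lower over all genes tested was 37.9%. The higher genes were Psph (0.56), Wars (1.15), Vldlr (0.57), Atf3, and the transporters Slc7a11, Slc38a2 (1.55), Slc7a3 (1.95), and Slc3a2 (0.25), all as log2 fold changes. Wars was at 93.5, 93.6, and 92.6 CPM in control and 203, 209, and 208 CPM in ECs, and Slc38a2 was at 394, 351, and 372 CPM and 1113, 1097, and 1066 CPM. The EC libraries stood above every MC3T3-E1 library for both. Atf4 was lower in ECs than in control osteoblasts (log2 fold change −0.57, SE 0.05, edgeR adjusted p = 3.43e-08), and Ddit3 (−0.67), Cebpb (−1.02), and Sesn2 (−1.06) were lower too. Cebpg (−0.13, edgeR adjusted p = 0.0241) and Chac1 (−0.02, edgeR adjusted p = 0.838) did not pass the threshold. The call of Eprs (−0.23, edgeR adjusted p = 0.00179) was lost without control replicate 1 (adjusted p 0.0101) or EC replicate 1 (0.0125). With scaling by library size alone the calls of Eprs (adjusted p 0.0974), Shmt2 (0.149), and Slc7a1 (0.0621) in ECs were lost.

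**Figure D3:**
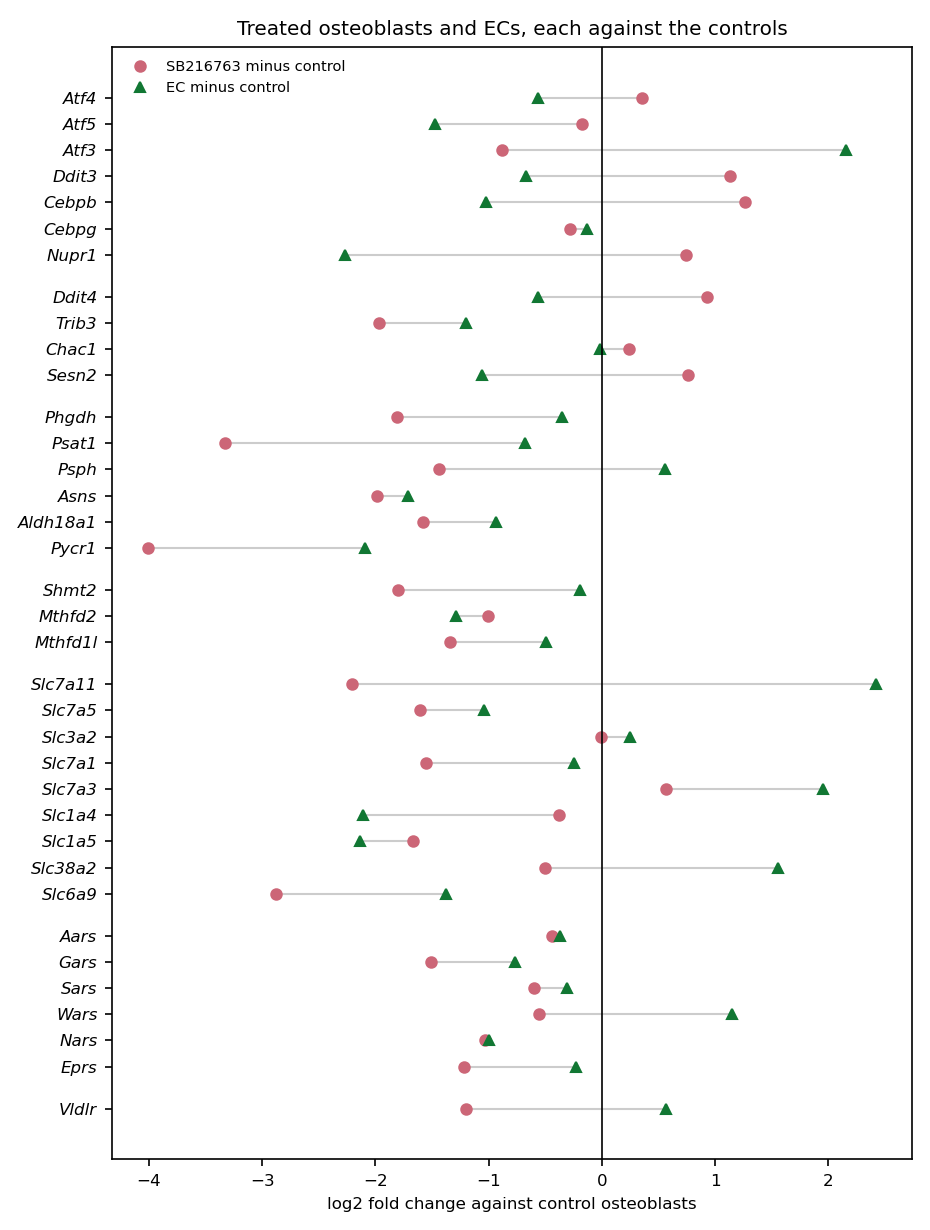
Log2 fold change of each of the 36 genes (horizontal axis) in SB216763-treated osteoblasts (circles) and in ECs (triangles), each against the same control osteoblast libraries and joined by a line for each gene. Slc7a11, Psph, Wars, Slc38a2, Atf3, and Vldlr lie left of 0 for treated osteoblasts and right of it for ECs.

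The third comparison placed treated osteoblasts directly against ECs, with 22 of the 36 genes lower and 11 higher in the treated cells, where 40.3% and 38.3% of all genes tested were called. The ranges did not overlap for 23 lower and 11 higher genes, against 43.8% and 41.6% of all genes. The median log2 fold change was −0.61 over the 36 genes and −0.02 over all genes tested. At a log2 change of 1 or more, 13 were lower and 7 higher, where 23.2% and 19.2% of all genes passed. At 2 or more, Slc7a11 (−4.62, edgeR adjusted p = 1.90e-16), Atf3 (−3.04, 6.34e-16), Psat1 (−2.64, 2.46e-16), Slc38a2 (−2.06, 3.01e-15), and Psph (−2.002, 7.68e-15) were lower, and Nupr1 (3.01, 5.74e-18) and Cebpb (2.28, 9.31e-16) were higher, where 15.0% and 10.3% of all genes passed.

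All 6 synthesis enzymes were lower in treated osteoblasts than in ECs, with log2 differences of −1.46 for Phgdh, −2.64 for Psat1, −2.002 for Psph, −0.28 for Asns, −0.65 for Aldh18a1, and −1.92 for Pycr1. Shmt2 (−1.61) and Mthfd1l (−0.85) were lower and Mthfd2 (0.28) was higher. Of the transporters 7 were lower, and Slc1a4 (1.73) and Slc1a5 (0.47) were higher. Of the transcription factors 5 were higher in treated cells, including Atf4 (0.92), Atf5 (1.30), and Ddit3 (1.79). The shares called lower and higher over all genes tested were 40.3% and 38.3%. Ddit4 (1.49) and Sesn2 (1.82) were also higher, and Trib3 (−0.77) was lower. Aars (−0.07, edgeR adjusted p = 0.165), Nars (−0.03, 0.492), and Cebpg (−0.15, 0.0150) did not pass the threshold. Cebpg passed without control replicate 2 (adjusted p 0.00700) or EC replicate 3 (0.00247), and Chac1 (0.25, 0.00323) lost its call without SB216763 replicate 1 (0.0189), SB216763 replicate 2 (0.0176), or EC replicate 1 (0.0189).

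Wider lists of the same pathways were counted in treated against control osteoblasts, where 32.0% of all genes tested were called lower and 32.9% higher. All 14 of the other cytosolic tRNA synthetases fell (100%, median log2 fold change −0.64). The other folate and glycine genes had 9 lower (69.2%) and 3 higher (23.1%) of 13 tested (median −1.18). They included Aldh1l2, the mitochondrial formyltetrahydrofolate dehydrogenase, which fell from 346 ± 19.0 to 41.7 ± 1.70 CPM (SD, n = 3 each, log2 fold change −3.05). Other proline and glutamate genes had 7 lower (63.6%) and 1 higher (9.09%) of 11 (median −0.75), and mitochondrial tRNA synthetases had 9 lower (52.9%) and 5 higher (29.4%) of 17 (median −0.51). The share lower was above that of all genes in each of these 4 lists, and the share higher of the mitochondrial synthetases was near it.

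The remaining lists hold genes upstream of ATF4, of the parallel stress arms, and of amino acid transport. Here too the shares over all genes tested were 32.0% lower and 32.9% higher. Those of the other amino acid transporters were near them in both directions. The eIF2α kinases and phosphatase subunits had 4 higher (44.4%) and 2 lower (22.2%) of 9 (median 0.09), and genes of the IRE1 and ATF6 arms of the unfolded protein response had 2 higher (18.2%) and 6 lower (54.5%) of 11 (median −0.25). Other amino acid transporters had 5 higher and 5 lower of 15 (33.3% each, median 0.32), among them Slc43a2, a transporter of large neutral amino acids, which rose from 10.9 ± 0.706 to 74.8 ± 0.632 CPM (log2 fold change 2.77, SD and n = 3 each). Its relative Slc43a1 (−2.79) and the system A transporter gene Slc38a4 (−2.43) fell. Both were low in treated libraries, with 4, 10, and 4 counts of Slc43a1 and 9, 14, and 21 counts of Slc38a4. Other ATF4 target and stress genes had 6 higher and 6 lower of 15 (40% each, median 0.22). In that list the 2 enzymes that make cysteine from homocysteine went opposite ways. Cth, which acts second, fell from 15.5 ± 1.08 to 0.369 ± 0.132 CPM (log2 fold change −5.36, edgeR adjusted p = 1.25e-14). Cbs, which acts first, was at 0.0788, 0.109, and 0.104 CPM in control libraries and 16.4, 18.9, and 17.2 CPM in treated libraries. Fgf21, a secreted hormone gene, had 28, 20, and 18 counts in control libraries and 0, 1, and 2 counts in treated libraries.

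**Figure D4:**
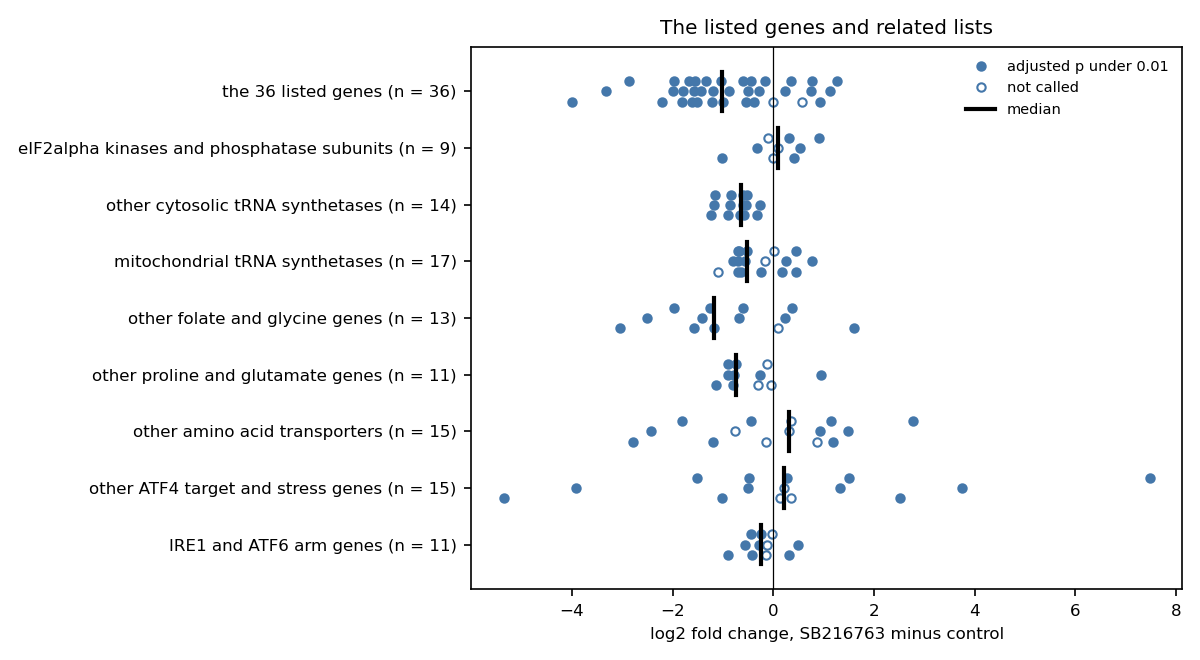
Log2 fold change in SB216763-treated minus control osteoblasts (horizontal axis) of the 36 genes and of the genes of each wider list, 1 point a gene, filled where the adjusted p was under 0.01, with a bar at the median of each list. The other cytosolic tRNA synthetases all lie left of 0, and the eIF2α kinase and stress lists lie on both sides of it.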

How the data were processed

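RNA-Seq libraries of control MC3T3-E1 osteoblasts, SB216763-treated osteoblasts, and mouse pulmonary ECs (3 each) were grouped by the labels. The authors deposited 1 table of whole-number read counts per gene for all 9 libraries, without normalization. Per the submitters' processing notes, reads were aligned with STAR 2.5.3a to GRCm38, and per the study's methods STAR also gave the counts. The annotation and strand setting are not given in the sources used here. Of 50686 Ensembl identifiers, 50376 were paired with a symbol through an Ensembl gene name table, and 50462 were in GENCODE M21, from which coordinates and exon lengths were taken.

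Counts were filtered by group with edgeR 4.0.16 (R 4.3.3) and scaled by the trimmed mean of M-values (TMM), leaving 15531 genes, and all 9 libraries were fitted together with a term for each group. Comparisons used edgeR's quasi-likelihood test, 2-sided, with Benjamini-Hochberg adjustment over all genes tested and a threshold of 0.01, with log2 fold changes at a prior count of 0.125. CPM are TMM-scaled. The steps were tested on simulated data. The 36 genes and the wider lists were chosen with earlier results of these data known. Values in every library are given for genes past a log2 fold change of 1 after SB216763 or of 2 in ECs, for Atf4, and for the serine enzymes, and genes of the wider lists are named only past a log2 fold change of 2, at most 3 a list. A gene that met this rule is not reported here. Where other genes have values in every library, these were added after the values were seen. The alternatives tried were a fit of only the groups compared, a replicate block, leaving out each library, other scalings, filters, thresholds, and prior counts, and the tools DESeq2 1.42.0 and voom in limma 3.58.1. Replicate numbers in the labels were not used to pair the libraries in the main fit. Libraries with the same number deviated from the means of their groups with a correlation of −0.0392 to 0.123. These values do not show whether libraries with the same number were prepared together. Total counts were 30990107 to 68946333 a library, and floors cover counting error only.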

Additional observations from a re-analysis of the deposited data

How the results depend on the processing

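Each of the 36 fold changes in the 3 comparisons was recomputed under 18 alternatives. Of the 1944 values, 1905 kept their direction and their side of the threshold, 24 lost the call, 4 gained it, and 11 changed direction. With scaling by library size alone, Atf5 turned to 0.0297 and Slc3a2 to 0.19 in treated against control osteoblasts, Chac1 to 0.110 in ECs against control osteoblasts, and Aars to 0.00622 and Nars to 0.0460 in treated osteoblasts against ECs. That scaling moved the median log2 fold change of all genes from 0.0142 to 0.218, from 0.00742 to 0.134, and from −0.0205 to 0.0562 in these comparisons, and relative to the moved median these values stayed below 0. The other turns were of values not called in either fit. Slc3a2 in treated against control osteoblasts was 0.00690 with upper-quartile scaling, 0.00249 without a filter, and −0.0322 to 0.0111 with 1 library left out, above 0 without SB216763 replicate 3. Chac1 in ECs against control osteoblasts was −0.0579 to 0.0207 with 1 library left out, above 0 without control replicate 2 or EC replicate 1, and Nars in treated osteoblasts against ECs was 0.00125 without a filter. With scaling by library size alone, too, the genes lower by 2 or more on the log2 scale numbered 2 for ECs against control osteoblasts and 3 for treated osteoblasts against ECs. A threshold of 1 in place of 2 gave 2 higher and 19 lower genes in treated against control osteoblasts, 5 and 12 in ECs against control osteoblasts, and 7 and 13 in treated osteoblasts against ECs. The shares of all genes tested at 1 were 11.1% and 13.0%, 21.2% and 17.5%, and 19.2% and 23.2% in the same order. Leaving out 1 library at a time, the counts in treated against control osteoblasts were 6 to 7 higher and 26 to 27 lower, and 4 to 6 lower by 2 or more on the log2 scale. In those fits 9563 to 10054 of the 15668 to 16121 genes tested passed an adjusted p of 0.01 in either direction.

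The replicate numbers were also fitted as a block, although the labels do not say that they pair the libraries. With the replicate block 7 genes were higher and 27 lower in treated against control osteoblasts, 8 and 26 in ECs against control osteoblasts, and 11 and 23 in treated osteoblasts against ECs, where Cebpg passed the threshold (log2 fold change −0.15, edgeR adjusted p = 0.00804). The block changed no other call of the 36 genes. Of the 15531 genes tested, 10131, 11998, and 12259 passed in these comparisons with the block, against 10083, 11948, and 12207 without it.

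The reads of the 8 genes that overlap others in the annotation (Atf5, Ddit3, Psph, Shmt2, Slc6a9, Aars, Cebpb, and Cebpg) could not be separated. The strand setting of the counting is not given in the sources used here. Ddit3, Aars, and Cebpg also overlap a gene on their own strand, where a strand setting would not separate the reads. Depth limited Slc7a3 and, in the wider lists, Fgf21, Cbs, Slc43a1, Slc38a4, and Cth, which had few counts in at least 1 group. The control culture time is not given, so treatment and days in culture cannot be told apart.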
